A study of Homo sapiens with 30 samples.

Results

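Joint induction of MEF2C and intracellular NOTCH1 (ICN) was read on 6 of the 30 arrays of the series. They come from a LOUCY line that carries dox-inducible constructs for both factors, grown in medium, with 3 arrays with dox and 3 without, and they were chosen by the sample titles alone. LOUCY cells are an established human leukemia line of the early T cell precursor type (ETP-ALL), and dox (doxycycline) switches the constructs on. A LOUCY line with the ICN construct alone and a LOUCY line with the MEF2C construct alone, both in medium and each on 3 arrays with dox and 3 without, served for comparison. None of these 18 arrays was shared between lines. The MEF2C construct is a lentiviral, codon-optimized MEF2C with an HA tag and BFP that lacks the beta transactivation domain, and transduced cells were sorted as a bulk population. The design of the ICN construct and the time under dox of the lines that carry it are not given in the sources used here. The paper states a time under dox for the MEF2C line only, so comparisons between lines may also differ in time. All 3 lines differ from one another also without dox, no array of a line without a construct was available for comparison, and an effect of dox itself cannot be told apart from that of the constructs. Neither the labels nor the methods say that the 3 arrays of a group came from separate cultures, so each p-value is set against a spread between arrays that may be purely technical.

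MEF2C is a MADS-box transcription factor that is active in muscle, myeloid and lymphoid cells, and its high expression marks immature T cell leukemias. NOTCH1 is a receptor whose intracellular part, once cleaved off, moves to the nucleus, joins the DNA-binding protein RBPJ and a MAML coactivator, and switches on genes such as the HES and HEY repressors and DTX1. In the thymus this signal commits progenitors to the T lineage, and it closes off B cell and myeloid fates. The comparison asks what happens in an immature leukemia line when both factors are driven at once, and whether the outcome resembles either factor alone.

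RBPJ binds a short core, TGGGAA, and the promoters of 2 Notch effector genes that rose under joint induction are shown with this core marked. Candidates were the HES and HEY genes, NRARP, DTX1 and NOTCH3, taken where they rose and not for the core. HEY1 and DTX1 also rose, but no window is given for them here, which says nothing about whether they hold the core. The core was searched on both strands of the RefSeq window from 250 bases before to 50 bases after the start site (GRCh38.p14), and the 150 bases before the start are printed 5′ to 3′ with the core in capitals. HES1 lies on the plus strand (chr3:194135998-194136147) and HES4 on the minus strand (chr1:1000098-1000247).
HES1: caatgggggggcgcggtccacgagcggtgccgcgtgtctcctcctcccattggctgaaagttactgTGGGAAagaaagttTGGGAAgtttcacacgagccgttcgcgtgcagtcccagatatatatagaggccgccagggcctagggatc
HES4: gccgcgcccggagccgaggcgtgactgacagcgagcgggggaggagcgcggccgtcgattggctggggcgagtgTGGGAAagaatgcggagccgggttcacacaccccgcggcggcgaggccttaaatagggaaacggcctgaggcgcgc
The HES1 window held 2 cores and the HES4 window 1. The core is common: 24.3% of all 27305 promoter windows held it, as did 22.8% of the 15384 windows of measured genes, 22.2% of the 932 windows of genes that rose and 18.2% of the 1750 windows of genes that fell. The MEF2 consensus was present in 3.09% of all windows, in 2.03% of those of measured genes, in 2.04% of those of genes that rose and in 1.71% of those of genes that fell. Neither SLAIN1 nor IL7R, both raised jointly and by MEF2C alone, held it in this window, and EFEMP1, also raised by both, had no window. For IL7R the paper reports MEF2C binding at an enhancer in the CAPSL locus, which the window does not cover. A window without the consensus therefore says nothing about binding elsewhere. Windows were found for 15384 of the 19775 genes measured.

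The values are log2 intensities after robust multiarray averaging (RMA), so a difference of 1 is a factor of 2. Over all probe sets the 6 arrays correlated at 0.9957 to 0.9968 within a group and at 0.9877 to 0.9899 between the groups, and array medians over the whole series lay between 4.76 and 4.84. Among T lineage markers, CD3D averaged 11.76 without dox and 12.30 with it, CD3G 9.27 and 9.55, CD3E 7.64 in both groups, and CD7 6.82 and 6.61. CD2 was near 3.6 and CD5 near 5. Of the ETP-ALL markers, LYL1 fell from 9.75 to 8.20, HHEX from 10.94 to 10.23 and the brightest MEF2C probe set from 10.08 to 7.87. LMO2 averaged 8.29 without dox and 8.09 with it, and BCL2 9.19 and 9.36. Of the other cell types' markers, 4 measured B cell, 5 myeloid, 5 NK, 2 erythroid and 5 stromal genes averaged 5.56 to 5.64, 3.99 to 4.29, 5.42 to 5.49, 5.67 to 5.83 and 4.22 to 4.34 on the arrays without dox. With dox the same averages were 5.56 to 5.69, 3.52 to 3.78, 5.28 to 5.52, 5.55 to 5.75 and 4.31 to 4.53. By its brightest probe set none of these markers rose, and CD79B (1 of 3 probe sets), LYZ and NKG7 fell. Of dimmer probe sets, 1 of the 7 of NCAM1 and 1 of the 3 of COL1A2 rose, and 1 of the 4 of HBB fell.

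The construct genes were examined first, since they check the labels. In the study's description most MEF2C probe sets lie outside the cloned sequence and so read the cell's own transcript, while another also covers the construct, but its text does not name them. For NOTCH1 the sources used here do not say which probe sets the construct reaches. For MEF2C, 2 of the 3 probe sets assigned to it here fell and 1 rose, while the study describes more than these 3. The brightest probe set read 10.10, 10.10 and 10.03 without dox and 7.88, 7.85 and 7.87 with it, a fall of log2 -2.21 ± 0.05 (SE, limma adjusted p = 2.60e-21), and another fell by 2.28 on the log2 scale. The third read 7.59, 7.53 and 7.62 without dox and 8.15, 8.28 and 8.31 with it, a rise of 0.66 (adjusted p = 0.001715). The same split was seen with MEF2C alone, where the differences were -1.08, -1.04 and 0.53, and not with ICN alone, where they were -0.26, -0.32 and -0.48. The fall of the brightest probe set was larger jointly than with MEF2C alone by 1.13 on the log2 scale (adjusted p = 4.88e-12). NOTCH1 was read by 2 probe sets. The brighter read 7.51, 7.32 and 7.42 without dox and 7.56, 7.38 and 7.53 with it (difference 0.07, adjusted p = 0.656), and the groups overlapped. The dimmer rose from 4.23, 4.19 and 4.29 to 4.90, 5.17 and 5.07 (difference 0.81, adjusted p = 3.45e-04), and its difference was 0.56 with ICN alone and 0.08 with MEF2C alone.

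Joint induction lowered more genes than it raised. At the study's criteria (log2 difference beyond 0.6, p under 0.05 and q under 0.1), 940 probe sets were higher (1.72% of those tested) and 1543 lower (2.83%). At an adjusted p under 0.05, 1154 of 19775 genes rose (5.84%) and 2165 fell (10.9%), and 165 of those that rose and 327 of those that fell moved by more than log2 1. With ICN alone 1273 genes rose and 1862 fell, and with MEF2C alone 994 rose and 707 fell. The median gene moved by 0.02 under joint induction. In bulk RNA of this kind, a smaller share of expressing cells and less RNA per cell cannot be told apart.

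Several of the largest rises took genes from the dim end of the array to high levels. EFEMP1, which encodes the matrix glycoprotein fibulin-3, read 3.81, 4.14 and 4.13 without dox and 11.62, 11.63 and 11.53 with it, a log2 difference of 7.57 ± 0.13 (SE), or a factor of 190. SLAIN1, a microtubule-associated protein, went from 2.29, 1.95 and 2.14 to 8.66, 8.76 and 8.59 (6.55 ± 0.12), and LGMN, the lysosomal protease legumain, from 2.80, 2.73 and 2.86 to 8.47, 8.58 and 8.37 (5.68 ± 0.28). In each of these the 3 arrays with dox lay far above the 3 without, although arrays that do not overlap were a condition of the choice. IL7R, the receptor chain for interleukin 7 on lymphoid progenitors, rose from 4.68, 4.68 and 4.87 to 9.44, 9.35 and 9.41, a factor of 25.2. GZMA, the cytotoxic granule protease granzyme A, rose from 7.48, 7.30 and 7.48 to 11.74, 11.82 and 11.77, a factor of 20.5. In the ICN line GZMA read 10.77 without dox and 12.42 with it. The rest of the 15 largest rises were TMEM158 (4.83), the kynurenine pathway enzyme KYNU (4.53), LOC101927432 (4.34), LINC02762 (3.86), SHISA2 (3.68), the actin nucleator COBL (3.59), the secretory granule protein SCG2 (3.45), the amino acid transporter subunit SLC3A1 (3.43), IGHV1-69 (3.40) and the receptor GPR171 (3.27). IGHV1-69 belongs to a family of near-identical immunoglobulin segments, so its probe set may read relatives. Its arrays with dox were spread most, at 6.98, 5.47 and 6.65. LINC02762 rose by 1 of 2 probe sets and SLC3A1 by 2 of 3.

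GFI1B, a transcriptional repressor of erythroid and megakaryocytic cells, read 9.23, 9.20 and 9.24 without dox and 4.56, 4.88 and 4.88 with it, a difference of -4.45 ± 0.08 (SE), or a factor of 21.9. CD52, a lymphocyte surface glycoprotein, went from 9.97, 10.05 and 10.13 to 5.98, 6.06 and 6.57 (-3.84 ± 0.21). ANGPT1, the ligand of the receptor TEK on stem and endothelial cells, went from 8.01, 8.23 and 8.07 to 4.57, 4.11 and 4.46 (-3.72 ± 0.11). The arrays with and without dox stood apart in all of these. Among the 15 largest falls were also 2 T cell receptor signaling proteins. THEMIS, needed for thymocyte selection, fell from 6.25, 6.23 and 5.86 to 2.91, 3.31 and 3.15 (-2.99 ± 0.13). LAT, the membrane adaptor downstream of the T cell receptor, fell from 8.36, 8.19 and 8.38 to 5.68, 5.48 and 4.93 (-2.95 ± 0.12). The rest were ACSL6 (-3.49), the collagen COL15A1 (-3.28), EMP3 (-3.19), AKR1C3 (-3.18), OGN (-3.07), MYT1L (-3.03), LILRA2 (-3.03), AFF3 (-3.02), the delta globin gene HBD (-2.97) and the ETS factor ETV5 (-2.93). HBD and LILRA2 have close relatives that their probes may also read. MYT1L fell by 2 of 4 probe sets, ACSL6 by 3 of 5, ANGPT1 by 2 of 3 and AFF3 by 4 of 6. These 30 genes were taken from those whose arrays with and without dox do not overlap, and the highest adjusted p among them was 9.04e-12. Over all 19775 genes, 7038 had arrays that did not overlap.

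**Figure D1:**
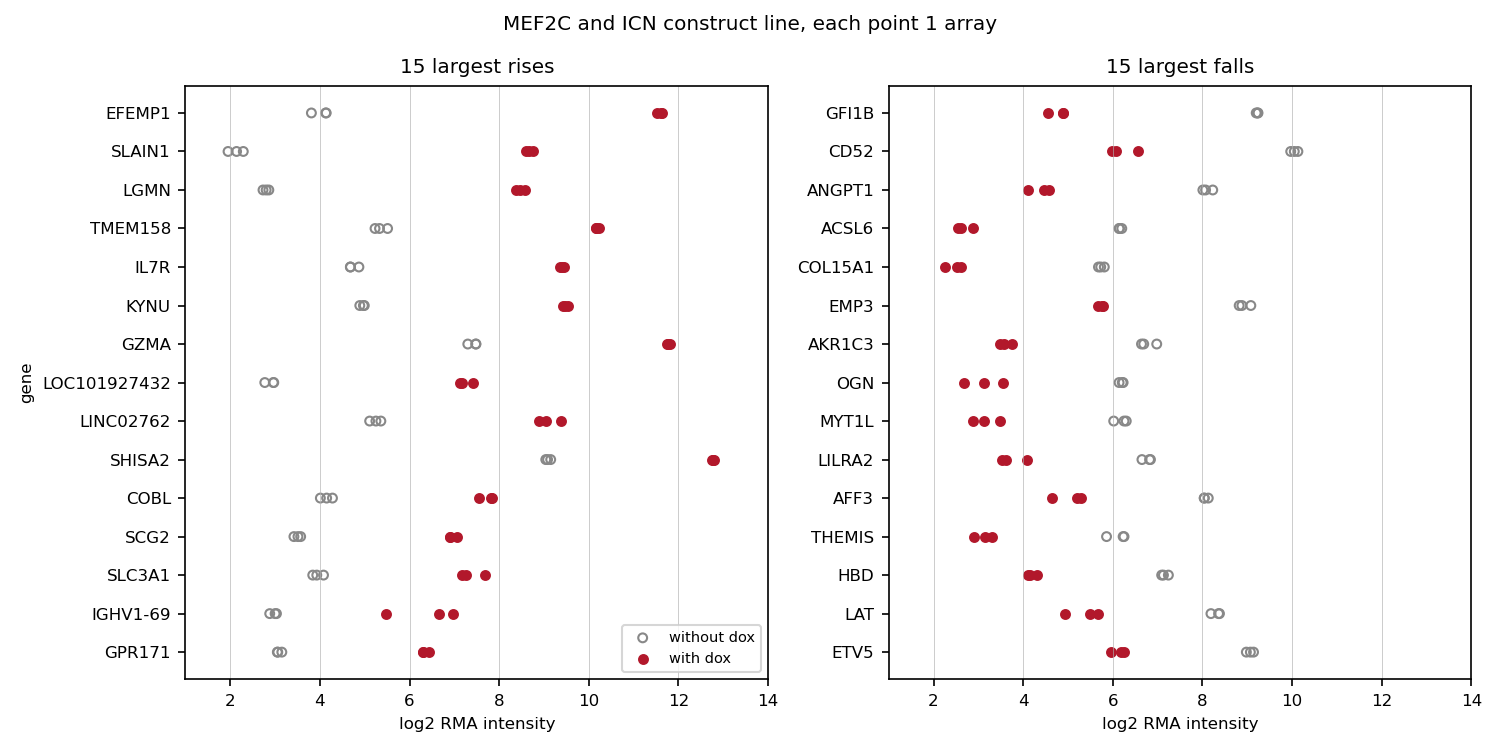
Log2 RMA intensity (horizontal axis) of the 15 genes that rose most and the 15 that fell most under joint induction, with each point 1 array of the MEF2C and ICN construct line, open without dox and filled with dox. Genes were taken only where the 3 arrays with dox and the 3 without do not overlap, and EFEMP1 moves most, by 7.57.

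The other genes are given by 33 lists of pathways and cell types, counted over their measured members, and some genes stand in more than 1 list. Among all genes 5.84% rose and 10.9% fell, and the counts of every list are to be read beside these shares. No list was tested against them. Of the 9 HES and HEY repressors measured, 3 rose and none fell. HEY1 read 5.44, 5.49 and 5.70 without dox and 7.86, 7.80 and 7.76 with it (2.26 ± 0.10). HES1, whose promoter holds the 2 cores shown above, read 9.27, 9.38 and 9.36 and then 10.95, 10.90 and 10.86 (1.57 ± 0.10). HES4 read 8.24, 7.70 and 8.32 and then 9.30, 9.51 and 9.47 (1.34 ± 0.44, adjusted p = 0.04325). The arrays of all 3 genes stood apart by group, but the call of HES4 was lost on leaving out any 1 of the 6 arrays (adjusted p 0.06753 to 0.1543). HEY1 rose less than with ICN alone, where it went from 7.02 to 11.98 (difference between the inductions -2.70, adjusted p = 7.12e-13). HES1 rose more than with ICN alone, where it went from 10.19 to 10.59 (difference 1.17, adjusted p = 1.63e-06). HES5 stayed near 3 in both groups (difference -0.02, adjusted p = 0.9573).

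Among 25 Notch receptors, ligands and feedback genes, 2 rose and 7 fell. DTX1, the E3 ligase deltex, rose from 4.48, 4.38 and 4.59 to 7.58, 7.41 and 6.80 (2.78), and with ICN alone by 2.31, a difference that did not pass the test (adjusted p = 0.3253). RBPJ rose by 0.25. The coactivators MAML2 (-1.10) and MAML3 (-0.82), the ligand JAG2 (-0.63), the fringe glycosyltransferases MFNG and LFNG (-0.56 each), FBXW7 and NOTCH2 (-0.33 each) fell. MAML2 rose with ICN alone by 2.25, and its 2 responses differed (adjusted p = 3.69e-13). Neither NRARP (-0.11, adjusted p = 0.6012) nor NOTCH3 (0.15, adjusted p = 0.1837) passed the test.

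Of 25 further genes known to respond to Notch in T cell progenitors and T cell leukemia, 9 rose and 5 fell, with a median of 0.07. Apart from IL7R, the rises were FJX1 (1.92), the E protein inhibitor ID3 (1.35), the T lineage factor BCL11B (0.92), PLXND1 (0.85), SHQ1 (0.78), LEF1 (0.46), CCND3 (0.30) and SOX4 (0.28). BCL11B went from 8.83, 8.85 and 8.89 to 9.71, 9.80 and 9.82, by all 3 of its probe sets. CD44 (-0.89), HHEX (-0.71), SKP2 (-0.55), CDKN1A (-0.39) and GATA3 (-0.20) fell. MYC, a Notch target in many T cell leukemias, was near 2.9 in both groups (difference 0.04, adjusted p = 0.8853).

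**Figure D2:**
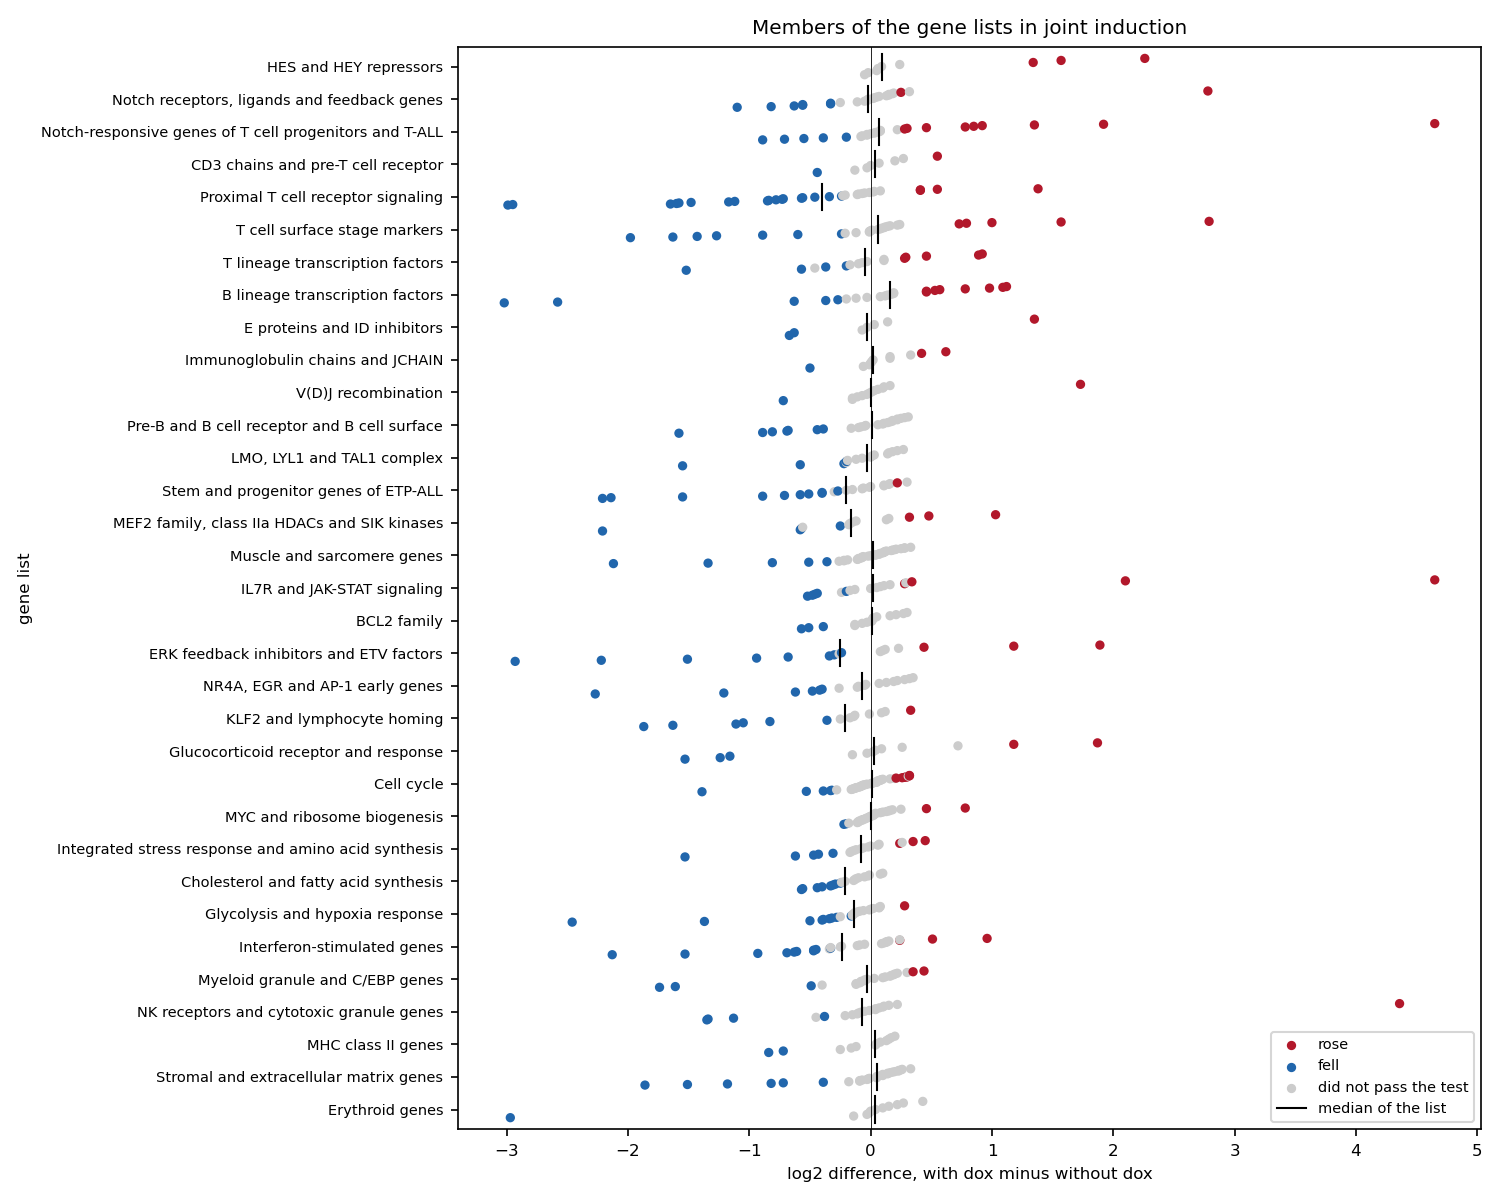
Log2 difference between the arrays with and without dox in the MEF2C and ICN construct line (horizontal axis) for each measured member of 33 gene lists (vertical axis), red where it rose, blue where it fell and grey where it did not pass the test, with the median of each list as a bar. Proximal T cell receptor signaling has the lowest median, -0.40, and IL7R and GZMA lie farthest to the right.

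Of 32 measured genes of proximal T cell receptor signaling, 18 fell and 4 rose, and their median was -0.40 against 0.02 over all genes, of which 10.9% fell. Beside THEMIS and LAT, the falls included TESPA1 (-1.65), the Ras exchange factor RASGRP1 (-1.60), the kinase SYK (-1.58), the phosphatase PTPN22 (-1.48), UBASH3A (-1.17), the adaptor SIT1 (-1.12) and VAV1 (-0.85). RASGRP1 read 8.67, 8.68 and 8.77 without dox and 7.27, 7.09 and 6.97 with it. The rises were the phosphatase PTPN6 (1.38), the kinases TXK (0.55), TEC (0.41) and FYN (0.41). With ICN alone 11 of the 32 fell and 7 rose, and with MEF2C alone 10 fell and 4 rose. For 17 of the 32 the joint response was below that of ICN alone and for 16 it was below that of MEF2C alone, beside 6.08% and 7.53% of all genes. Starting levels could differ between the lines. THEMIS read 6.11 without dox in the joint line, 5.01 in the ICN line and 2.19 in the MEF2C line, where little room was left for a fall. The kinase LCK rose with ICN alone by 0.98 and fell jointly by 0.34 on the log2 scale (adjusted p of the difference 2.36e-11). Of 8 CD3 chains and pre-T cell receptor genes, CD3D rose from 11.74, 11.69 and 11.84 to 12.27, 12.34 and 12.30 (0.55), TARP fell (-0.44), and PTCRA gave 0.07 (adjusted p = 0.7696). With ICN alone 5 of the 8 rose and 1 fell, and with MEF2C alone 3 fell and none rose. For 3 of the 8 the joint response was below that of ICN alone, and for none above it. CD3E rose with ICN alone by 0.81 and did not pass the test jointly (adjusted p of the difference 4.86e-05). CD3G rose with ICN alone by 1.25 and gave 0.27 jointly (adjusted p of the difference 6.34e-05).

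T cell surface markers and lineage factors were divided. Of 27 surface stage markers 5 rose and 7 fell. CD28, the costimulatory receptor, rose from 4.40, 4.32 and 4.28 to 7.23, 7.11 and 7.03 (2.79). Its level without dox was 8.46 in the ICN line and 8.32 in the MEF2C line, and both exceeded its level in the jointly induced cells, 7.12. The cortical thymocyte markers CD1A (1.57), CD1B (1.00) and CD1C (0.73) and CD38 (0.79) rose. CD69 fell from 10.18, 10.32 and 10.13 to 8.32, 8.26 and 8.10, and CCR7 (-1.63), CD96 (-1.43), IL2RB (-1.27), CD44 (-0.89), CD99 (-0.60) and CD6 (-0.24) fell as well. Of 16 T lineage transcription factors 5 rose (BCL11B, ETS2, LEF1, ETS1 and SOX4, by 0.28 to 0.92) and 4 fell (TOX, TOX2, IKZF3 and GATA3). TOX, a factor of thymocyte development, fell most, from 11.15, 11.23 and 11.11 to 9.70, 9.61 and 9.63.

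B lineage genes showed no common direction. Of 22 B lineage transcription factors 8 rose and 5 fell. The repressor BACH2 (1.12), IRF8 (1.09), the early B cell factor EBF1 (0.98), BCL11A (0.78), the octamer coactivator POU2AF1 (0.57), ETV6 (0.53), FOXP1 (0.46) and IKZF1 (0.46) rose. EBF1 went from 8.91, 8.84 and 8.90 to 9.90, 9.84 and 9.86, above its response to ICN alone (-0.14, adjusted p of the difference 1.06e-09) and to MEF2C alone (0.48, adjusted p 3.23e-04). AFF3 (-3.02), the octamer factor POU2F2 (-2.58), TCF4 (-0.63), IKZF3 (-0.37) and ERG (-0.27) fell. Of 11 immunoglobulin genes and JCHAIN, IGHM rose (0.62, from a mean of 11.61 to 12.24), IGK rose (0.42) and IGHD fell (-0.50), although 1 of the 5 probe sets of IGHD rose. JCHAIN, which joins immunoglobulin chains, gave -0.01 and rose with MEF2C alone by 2.41. Of 24 genes of the pre-B and B cell receptor and B cell surface, 7 fell and none rose, among them the surrogate light chain gene VPREB1 (-0.81), CD37 (-0.89), PLCG2 (-0.69) and CD79B (-0.44). Of 14 V(D)J recombination genes only RAG1 and RAG2, the partners of the recombinase, passed the test, in opposite directions. RAG1 rose from 5.60, 5.48 and 5.21 to 7.38, 7.12 and 6.97 (1.73, by 1 of its 2 probe sets), and RAG2 fell from 5.37, 5.35 and 5.24 to 4.88, 4.50 and 4.42 (-0.72). With MEF2C alone both rose, by 2.24 and 0.83. Of 7 E proteins and their inhibitors, ID3 rose (1.35), and ID2 (-0.67) and TCF4 (-0.63) fell.

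Of 23 stem and progenitor genes of ETP-ALL 10 fell and 1, MYB (0.22), rose, beside 10.9% and 5.84% of all genes. MEF2C is counted as a fall by its brightest probe set, although 1 of its 3 probe sets rose. Beside it, the falls were led by WT1, from 6.21, 6.13 and 6.41 to 4.42, 4.01 and 3.91 (-2.14), and LYL1, from 9.75, 9.71 and 9.78 to 8.27, 8.16 and 8.16 (-1.55). MYCN fell by 0.40 on the log2 scale jointly and by 1.98 with ICN alone (adjusted p of the difference 5.70e-12). Of 16 genes of the LMO, LYL1 and TAL1 complex, LYL1, GATA2 (-0.58), SSBP2 (-0.22) and GATA3 (-0.20) fell and none rose. Of 14 genes of the MEF2 family, class IIa histone deacetylases and SIK kinases, HDAC5 (1.03), HDAC4 (0.48) and HDAC7 (0.32), repressors that bind MEF2 factors, rose. SIK3 (-0.58), CABIN1 (-0.57) and HDAC9 (-0.25) fell, and MEF2C is again counted as a fall by its brightest probe set. Of 36 muscle and sarcomere genes 5 fell and none rose, the largest being myoglobin, MB, from 7.92, 8.09 and 8.15 to 5.92, 6.01 and 5.86.

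Of 18 genes of IL7R and JAK-STAT signaling, 4 rose and 5 fell. SOCS2, a feedback inhibitor induced by STAT5, lay between 8.95 and 9.01 on the 3 arrays without dox and rose to 11.14, 11.07 and 11.06 with it (2.10), more than with ICN alone (0.68) or with MEF2C alone (0.35), with adjusted p of the differences of 2.22e-11 and 4.12e-13. JAK1 (0.34) and TYK2 (0.28) rose, and STAT5A (-0.52), IL2RG (-0.48), JAK3 (-0.46), CRLF2 (-0.44) and STAT3 (-0.20) fell. Of 16 BCL2 family genes, PMAIP1 (-0.57), BIK (-0.51) and BCL2L1 (-0.39) fell and none rose. BCL2 itself, the antiapoptotic founder of the family, read 9.19, 9.18 and 9.20 without dox and 9.39, 9.38 and 9.30 with it (0.16, adjusted p = 0.1366), whereas it fell with ICN alone (from 9.26 to 7.67) and rose with MEF2C alone (from 10.32 to 11.18). NR3C1, the glucocorticoid receptor, rose from 9.79, 9.72 and 9.73 to 11.59, 11.59 and 11.67, by all 5 probe sets. Of the 12 glucocorticoid genes DUSP1 (1.18) also rose, by 1 of 3 probe sets, and DDIT4 (-1.53), FKBP5 (-1.24) and TXNIP (-1.16), which glucocorticoids induce in lymphoid cells, fell.

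Of 16 ERK feedback inhibitors and ETV factors 8 fell and 3 rose, where 10.9% of all genes fell and 5.84% rose. The phosphatase DUSP6 fell from 9.90, 9.95 and 9.81 to 7.71, 7.55 and 7.73 (-2.22), as it did with MEF2C alone (-2.21) but not with ICN alone (0.76, a rise). ETV5 (-2.93), SPRY1 (-1.51), SPRY2 (-0.94) and SPRED2 (-0.68) fell, and SPRY4 (1.89), DUSP1 and DUSP5 (0.44) rose. Of 18 NR4A, EGR and AP-1 early genes 6 fell and none rose, with FOSL2 (-2.27) and IER2 (-1.21) the largest. Of 14 genes of KLF2 and lymphocyte homing 6 fell, among them the integrins ITGAL (-1.87), ITGB2 (-1.11) and ITGA4 (-0.83), and KLF7 (0.33) rose.

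Of 44 cell cycle genes 7 rose, by 0.21 to 0.32, and 5 fell, with the inhibitor CDKN2D (-1.39) the largest. Of 29 genes of MYC and ribosome biogenesis 2 rose and 2 fell. Cholesterol and fatty acid synthesis had 8 falls and no rise among 19 genes, none beyond 0.57 in size, with SCD (-0.57) and SQLE (-0.56) at the end. Of 25 glycolysis and hypoxia genes 9 fell and 1 rose, and the glucose transporter SLC2A3 went from 7.38, 7.22 and 7.43 to 5.04, 4.87 and 4.74. It rose with ICN alone by 0.42 and fell with MEF2C alone by 1.38. Of 19 genes of the integrated stress response 5 fell and 3 rose. Of 26 interferon-stimulated genes 10 fell and 3 rose, from IFI44L (-2.13) to IFIT3 (0.96).

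Among genes of other lineages, GZMA alone rose of 20 NK receptor and cytotoxic granule genes, where 5.84% of all genes rose, while PRF1 (-1.35), CST7 (-1.34), ZNF683 (-1.13) and NKG7 (-0.38) fell. Of 23 myeloid granule and C/EBP genes CEBPB (0.35) and GFI1 (0.44) rose, and CTSG (-1.74), LYZ (-1.61) and CEBPE (-0.49) fell. Of 12 MHC class II genes HLA-DMA (-0.84) and HLA-DMB (-0.72) fell. Of 30 stromal and matrix genes 6 fell and none rose, led by COL6A3 (-1.86) and TIMP1 (-1.51), and of 11 erythroid genes HBD fell.

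Most genes that a single induction lowered also fell under joint induction. Genes were classed by their calls in the ICN line and in the MEF2C line in medium (adjusted p under 0.05 and log2 difference beyond 0.6). These lines share no array with the joint line, and the joint values are given without a test. Here "only" means that the other factor missed these criteria, although it may have moved the gene by less. LYL1, classed as lowered by ICN only, also fell with MEF2C alone (-0.58, limma adjusted p = 6.55e-06). Genes in no class may likewise have passed the test with a difference within 0.6. Of 345 genes lowered by ICN only, 262 fell jointly (75.9%), with a joint median of -0.69 beside -0.76 for ICN alone. Of 101 genes lowered by MEF2C only, 70 fell (69.3%), with medians of -0.78 and -0.84. Of 332 genes raised by ICN only 153 rose (46.1%) and 37 fell, with medians of 0.28 and 0.96, and of 159 genes raised by MEF2C only 59 rose (37.1%) and 19 fell, with medians of 0.17 and 0.86. With classes set at a log2 difference beyond 1, 90 of 172 genes raised by ICN only rose (52.3%) and 23 of 68 raised by MEF2C only did (33.8%). Over all genes 5.84% rose and 10.9% fell. Of 20 genes raised by both factors 13 rose, and of 29 lowered by both 25 fell, with a joint median of -1.68. Of the 18731 genes in no class, 894 rose and 1726 fell.

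**Figure D3:**
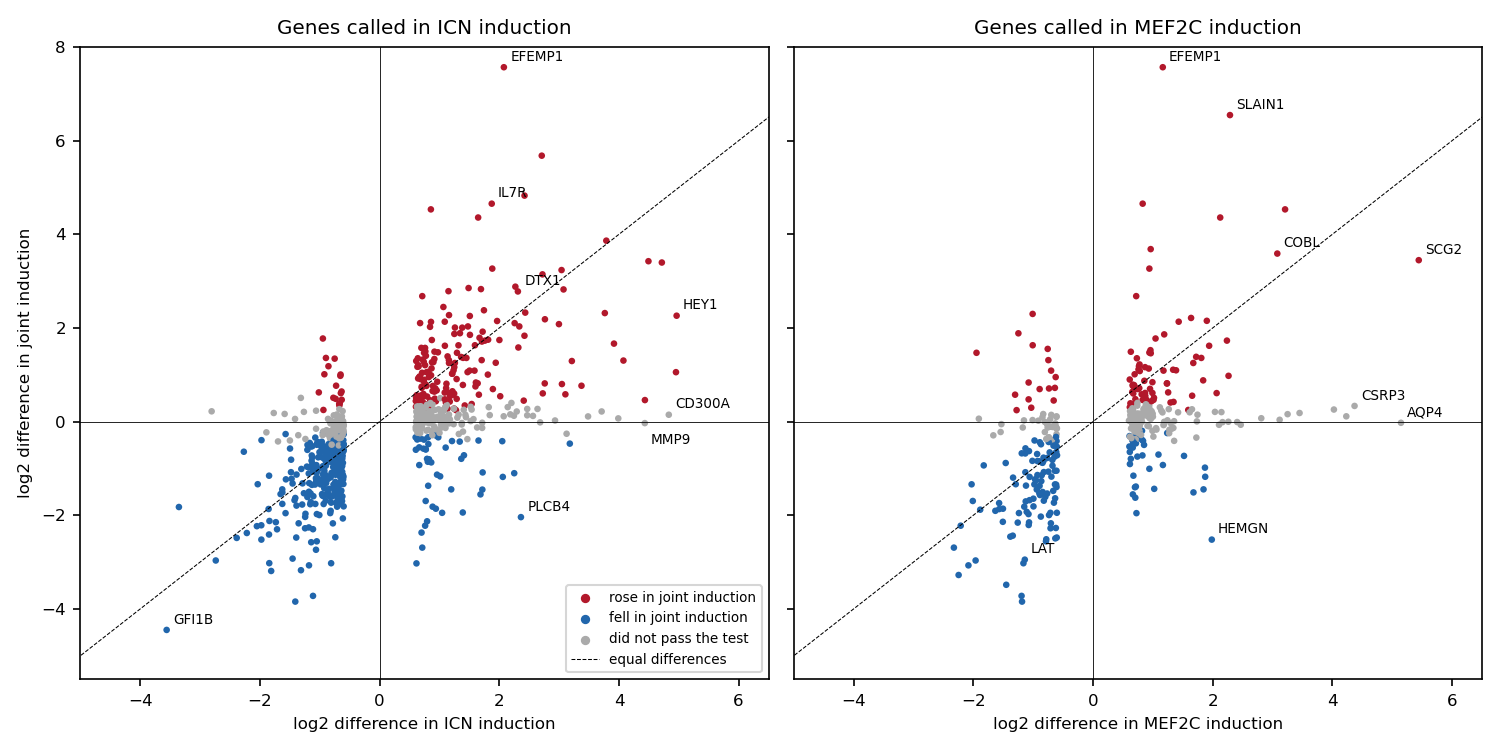
Log2 difference in joint induction (vertical axes) against that in ICN induction (left) and in MEF2C induction in medium (right) for the genes called in each single induction, with points coloured by their joint call and the dashed line marking equal differences. Many genes raised by 1 factor lie near 0 on the vertical axis, among them MMP9 (-0.03 against 4.43) and AQP4 (-0.03 against 5.15).

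Against ICN induction, 802 genes responded more positively under joint induction (4.06%) and 1202 more negatively (6.08%). The 6 largest positive differences were those of SLAIN1 (6.52), EFEMP1 (5.49), LOC101927432 (4.35), COBL (3.81), KYNU (3.68) and SCG2 (3.41). SLAIN1, COBL and SCG2 did not pass the test with ICN alone and rose with MEF2C alone. For EFEMP1 the starting levels differed: it read 4.02 in the joint line without dox and 9.47 in the ICN line without dox, and with dox the 2 lines read 11.59 and 11.54. IL7R likewise started at 4.74 against 8.01 and ended at 9.40 against 9.88. TMEM158 started at 5.36 against 7.99 and ended at 10.18 against 10.42, and GZMA started at 7.42 against 10.77 and ended at 11.78 against 12.42. The 6 largest negative differences were those of CD300A (-4.69), the gelatinase MMP9 (-4.46), the phospholipase PLCB4 (-4.40), FBXO2 (-3.97), TMEM100 (-3.92) and CHI3L2 (-3.90). MMP9 read 6.39, 6.33 and 6.11 without dox and 6.27, 6.20 and 6.27 with it in the joint line, while it went from 6.38 to 10.81 in the ICN line. CD300A, an inhibitory receptor of myeloid and lymphoid cells, read 3.87, 3.90 and 3.81 and then 3.84, 4.02 and 4.14, while it went from 4.58 to 9.41 with ICN alone. PLCB4 fell jointly by 2.04 on the log2 scale and rose with ICN alone by 2.36.

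Against MEF2C induction in medium, 582 genes responded more positively (2.94%) and 1489 more negatively (7.53%). EFEMP1 (6.40), LGMN (5.05), TMEM158 (4.68), LOC101927432 (4.26), SLAIN1 (4.26) and LINC02762 (3.95) led the positive differences. The negative side was led by AQP4 (-5.17), HEMGN (-4.50), GFI1B (-4.24), FCER1A (-4.12), CSRP3 (-4.04) and MMP20 (-3.77). AQP4, a water channel of brain and muscle, read 1.93, 2.01 and 1.94 without dox and 1.84, 1.93 and 2.04 with it in the joint line, and went from 2.11 to 7.26 with MEF2C alone. CSRP3, a muscle LIM protein, went from 4.87 to 9.24 with MEF2C alone and gave 0.33 jointly (adjusted p = 0.1878). HEMGN, a nuclear protein of hematopoietic progenitors, rose with MEF2C alone by 1.98 and fell jointly by 2.52 on the log2 scale.

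The joint response lay above the sum of the single responses for 430 genes (2.17%) and below it for 773 (3.91%). EFEMP1 (4.33), LOC101927432 (4.27), SLAIN1 (4.23), the chemokine receptor CCR6 (3.16), SVOPL (2.89) and RGS18 (2.86) exceeded it most. Of these, LOC101927432 and CCR6 passed the test in neither single induction. CCR6 rose jointly from 2.72, 2.55 and 2.17 to 5.77, 5.83 and 5.01. AQP4 (-5.29), CD300A (-4.59), FGL2 (-4.49), MMP9 (-4.39), FCER1A (-4.33) and PLCB4 (-4.27) fell farthest below it. FGL2, a fibrinogen-like protein, rose with ICN (1.20) and with MEF2C (1.85) and fell jointly, from 4.50, 4.53 and 4.86 to 3.06, 3.14 and 3.33. The joint fall of FGL2 was called by 1 of its 2 probe sets. By contrast, the departures of KYNU (0.47, adjusted p = 0.2337), COBL (0.73, adjusted p = 0.06636) and LINC02762 (0.16, adjusted p = 0.8212) did not pass the test. The sum assumes that both lines start from the same state, which the levels without dox did not show for genes such as EFEMP1 and IL7R.

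**Figure D4:**
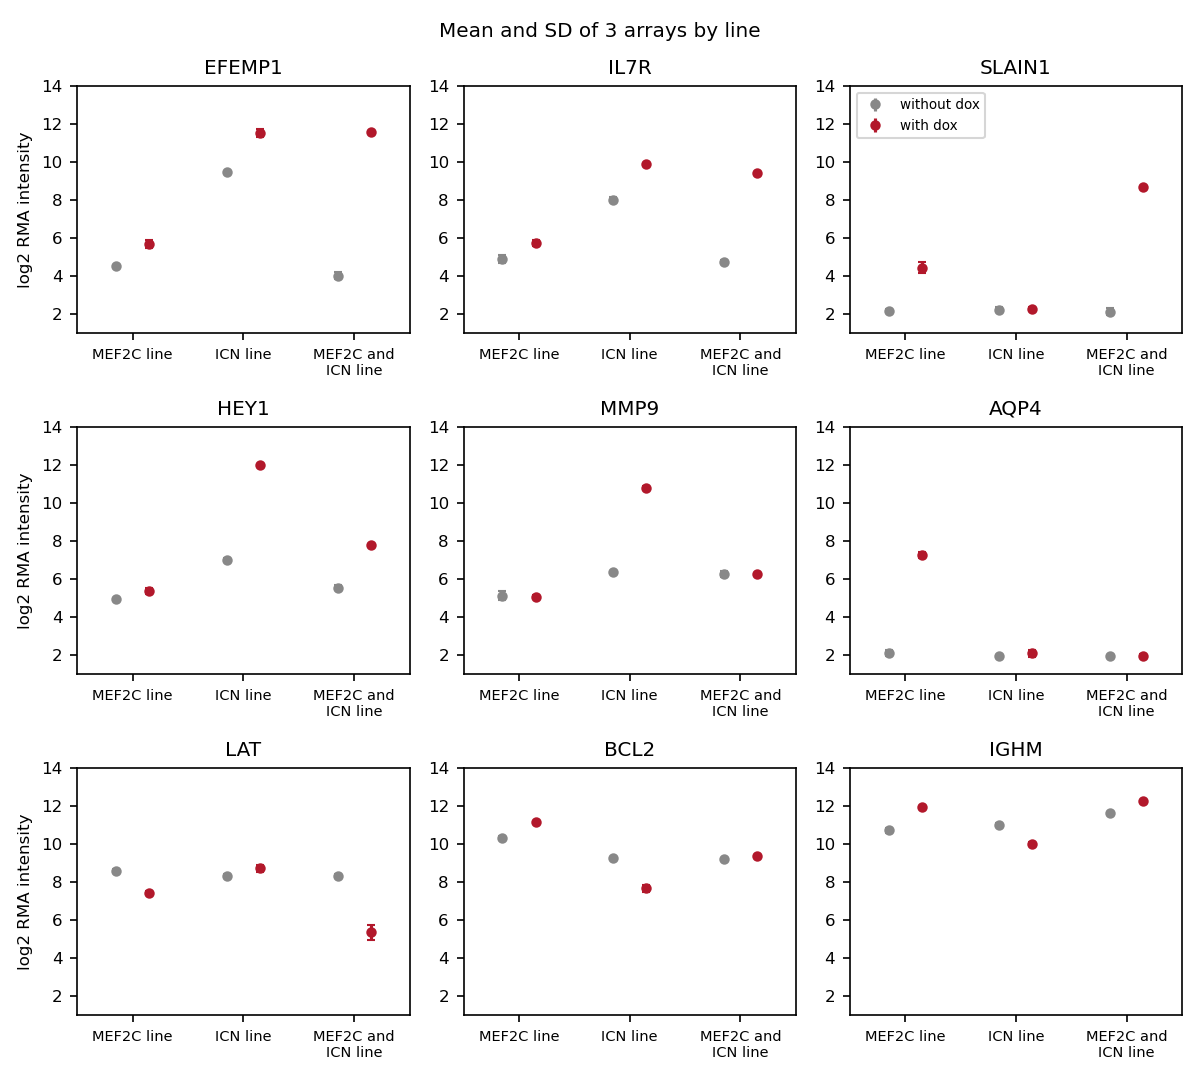
Mean log2 RMA intensity (vertical axes) of 9 genes in the MEF2C line in medium, the ICN line and the MEF2C and ICN line, grey without dox and red with dox, with bars for the SD of 3 arrays. EFEMP1 and IL7R start higher in the ICN line than in the other lines, MMP9 is raised in the ICN line alone and AQP4 in the MEF2C line alone, and BCL2 moves in opposite directions in the 2 single lines.

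Genes that the single inductions moved in opposite directions did not follow 1 factor throughout. Of 35 genes raised by MEF2C and lowered by ICN, 15 fell jointly and 8 rose, and of 23 lowered by MEF2C and raised by ICN, 10 rose and 8 fell. Among the 8 most opposed genes, HEMGN and the ERK inhibitor SPRY1 (9.73, 9.70 and 9.63 without dox, 8.25, 8.15 and 8.13 with it) fell as with ICN. ST18 (1.47), PLAAT4 (0.83), POU2AF1 (0.57) and PLAC8 (0.24) rose, as with ICN. The call of POU2AF1 was lost with the mean of its probe sets (0.27, adjusted p = 0.05092), and that of PLAC8 in the limma fit on the joint line alone (adjusted p = 0.06773). The transporter SLC6A13 (0.18, adjusted p = 0.4269) and the ecto-5′-nucleotidase NT5E (0.21, adjusted p = 0.4575) did not pass the test jointly, although MEF2C alone raised them by 3.45 and 2.04. SLC6A13 read 8.63 in the MEF2C line and 4.86 in the joint line without dox. Outside these 8, and chosen after its values were seen, IGHM moved jointly (0.62) in the direction of MEF2C (1.26) and against that of ICN (-1.02).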

How the data were processed

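Each of 10 conditions of LOUCY lines was measured on 3 Affymetrix HG U133 Plus 2.0 microarrays. Per the labels, the authors deposited log2 expression values after RMA, which corrects background, equalizes the distributions of all arrays and summarizes the probes of a probe set. affy 1.64.0 and R 3.6.3 are listed by the submitters for this step. A shift in the amount of RNA per cell is therefore lost, and differences of dim probe sets are compressed. An array has no read depth, and 3 arrays a group limit the precision.

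Groups and replicate numbers were taken from the sample titles. All 30 arrays entered 1 limma 3.58.1 model (R 4.3.3) of 10 group means. Contrasts were joint induction, its differences from ICN induction and from MEF2C induction in medium, and its departure from their sum. P-values were adjusted by Benjamini-Hochberg over 54613 probe sets, 62 control probe sets being left out. Counts of probe sets used the study's criteria (log2 difference beyond 0.6, p under 0.05, q under 0.1), and genes used adjusted p under 0.05. A gene was read by its brightest probe set over all arrays (19775 genes with 1 symbol in the platform annotation, while 1801 probe sets carried several symbols). The steps were tested on simulated data.

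Named genes were MEF2C and NOTCH1, the 15 largest rises and falls with arrays that did not overlap, the 6 largest each way in each difference, the 8 genes most opposed between the single inductions, and members of 33 gene lists. The members and lists were chosen with earlier results of these data known. Alternatives were the groups compared alone, a trended and robust prior, a mean of at least 5, median centring, a further quantile normalization, a replicate block, other thresholds, the mean of all probe sets of a gene, and leaving out each array. Promoter windows are those of RefSeq (GRCh38.p14).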

Additional observations from a re-analysis of the deposited data

Results flagged for a closer look

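The responses to dox of the joint line and of each single line were compared by limma contrasts, and the genes below differed at an adjusted p under 0.05. No group of 3 arrays was tested for outlying arrays. Against ICN induction, 802 genes had a more positive joint response and 1202 a more negative one. The largest positive differences (log2, joint minus ICN) were 6.52 for SLAIN1, 5.49 for EFEMP1, 4.35 for LOC101927432, 3.81 for COBL, 3.68 for KYNU and 3.41 for SCG2. The largest negative differences were -4.69 for CD300A, -4.46 for MMP9, -4.40 for PLCB4, -3.97 for FBXO2, -3.92 for TMEM100 and -3.90 for CHI3L2.

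Against MEF2C induction in medium, 582 genes had a more positive joint response and 1489 a more negative one. The largest positive differences (log2, joint minus MEF2C) were 6.40 for EFEMP1, 5.05 for LGMN, 4.68 for TMEM158, 4.26 for LOC101927432, 4.26 for SLAIN1 and 3.95 for LINC02762. The largest negative differences were -5.17 for AQP4, -4.50 for HEMGN, -4.24 for GFI1B, -4.12 for FCER1A, -4.04 for CSRP3 and -3.77 for MMP20. Line and construct change together in these comparisons, and the time under dox may differ as well, so these cannot be told apart.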

How the results depend on the processing

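Requiring a log2 difference beyond 1 at an adjusted p under 0.05 left 426 probe sets higher and 632 lower, in place of 940 and 1543. Under the groups compared alone, the trended prior, the filter, median centring, the further quantile normalization and the replicate block, each count of calls stayed within 1.5 times its value. On leaving out 1 array, genes that rose numbered 882 to 1042 and those that fell 1715 to 2036. With a replicate block 1012 genes rose and 1956 fell. Same-numbered arrays of the joint line correlated in their deviations at 0.16, -0.06 and 0.02, and differently numbered ones at -0.26 to 0.25. With 3 arrays a group these values cannot settle whether the numbers pair the arrays. None of the 136 genes followed through the alternatives reversed, and the filter left 119 of them. Most of these genes had been chosen for a large joint change that passed the test, so a reversal was unlikely from the start. Named genes with small joint changes, such as GATA3 and RBPJ, were not followed. Nor were MMP9, CD300A and AQP4, which were named for their differences between lines. HES4 lost its call under the trended prior and on leaving out any array, BANK1 and IFIT2 on leaving out particular arrays (0.05225 to 0.06753), PLAC8 in the fit on its own groups (0.06773) and POU2AF1 with the mean of its probe sets (0.05092). With that mean NOTCH1 (0.44) and NT5E (0.45) passed the test, as SLC6A13 did (0.37) without 1 array. With classes set at a log2 difference beyond 1, the share of genes lowered by MEF2C and raised by ICN that rose jointly was 83.3% of 6, in place of 43.5% of 23, and the share that fell 16.7%, in place of 34.8%. The share of genes lowered by ICN only that rose jointly was 0%, in place of 2.9%. Dim probe sets and 3 arrays a group limit the smallest differences that can be seen.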
